A study of Mus musculus with 12 samples.

Results

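The genes described here are 8 members of the desmosome and plakin families, read by symbol from the count table of every library: the desmosomal cadherins Dsc2, Dsc3 and Dsg2, the armadillo-repeat proteins Jup, Pkp2 and Pkp4, and the plakins Dsp and Ppl. All 8 were found, each as 1 row among the 55357 genes of the table. The symbols were chosen by gene family with earlier results of these data known, and which comparison guided the choice is not recorded. The p-values given for the 8 genes therefore show where each gene stands among all genes tested and are not independent evidence.

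RNA was sequenced from the cortex and hippocampal formation of mouse pups at postnatal day 5, and rostral and caudal tissue of each animal was kept apart. Rostral and caudal cortex below stand for these pieces of tissue, which may hold hippocampal formation. The 3 control animals (T4, T8 and T70) are given as EgfrF/+ in the protocol and as WT in the genotype label, and the 3 knockout animals (T3, T6 and T80) as Nestin-EgfrF/F. These carry 2 floxed copies of Egfr, the epidermal growth factor receptor, and a recombinase under the Nestin promoter, which acts in neural stem and progenitor cells and their descendants (cKO). All animals thus carry at least 1 floxed allele if the protocol is followed, and the labels do not say whether the controls carry the recombinase.

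Desmosomes are spot-like junctions that join neighbouring cells and anchor their intermediate filaments. Desmocollins (Dsc) and desmogleins (Dsg) are the cadherins that meet between the cells, Jup (plakoglobin) and the plakophilins (Pkp) bind their tails, and desmoplakin (Dsp) ties the plaque to the filaments. The junctions are best known from epidermis and heart. In the brain they are known from the meninges, and some of the genes are also transcribed in neurons, as Dsp is in granule neurons of the dentate gyrus.

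The 12 libraries held 43810458 to 87170315 counts. Egfr was at 38.5 to 48.4 CPM (counts-per-million) in the control libraries and at 5.33 to 14.9 in the cKO libraries, so each library matched the genotype of its label. A pair of libraries stood apart. In rostral cKO cortex of T6, mitochondrially encoded genes took 8.18% of the counts, against 1.85% to 3.98% in the other 11 libraries. In rostral cKO cortex of T3, the choroid plexus transcript Ttr was at 370 CPM, where the other rostral libraries held 0.0476 to 0.4 CPM. The T numbers were taken to name animals, which the labels do not state, and p-values measure the spread between these samples. By sex-linked transcripts 1 control animal (T70) and 2 cKO animals (T6 and T80) were male.

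The 3 cadherin genes lie on chromosome 18 (GRCm39). Dsc3 (ENSMUSG00000059898.10) spans 20093987 to 20135408 and Dsc2 (ENSMUSG00000024331.12) 20163690 to 20192611, both on the minus strand and 28282 bases apart. Dsg2 (ENSMUSG00000044393.16) spans 20691131 to 20737578 on the plus strand, 498520 bases from Dsc2. The other genes are scattered. Jup (ENSMUSG00000001552.15) is on chromosome 11 from 100259784 to 100288589, and Dsp (ENSMUSG00000054889.11) is on chromosome 13 from 38335270 to 38382553. Pkp4 (ENSMUSG00000026991.21) is on chromosome 2 from 58991194 to 59185552. Ppl (ENSMUSG00000039457.5, 4904155 to 4950285) and Pkp2 (ENSMUSG00000041957.16, 16031182 to 16090576) are both on chromosome 16. Exons of Dsg2 share 330 bases, and those of Dsp 499 bases, with antisense gene models that had a mean count of 1 or less per library, and the other 6 genes share no exon base with another gene of the table.

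Per length of exon, Pkp4 and Jup were far above the other 6 genes. CPM per kilobase averaged 32.5 for Pkp4 (range 29.5 to 36.4 over the 12 libraries) and 9.33 for Jup (7.52 to 10.7), the armadillo proteins that also serve adherens junctions. Dsc3 came next at a mean of 1.5, with a range from 0.0651 to 3.32 that reached below Pkp2 (mean 0.430), Dsc2 (0.339), Dsg2 (0.296) and Dsp (0.285). The ranges of these last 4 genes overlapped each other, so their order is not resolved. Ppl was lowest at a mean of 0.0609 (0.00444 to 0.110), below every value of the other genes but those of Dsc3 in control rostral cortex. The order of the 8 means was the same in TPM, the deposited counts divided by length and scaled to a common total.

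**Figure D1:**
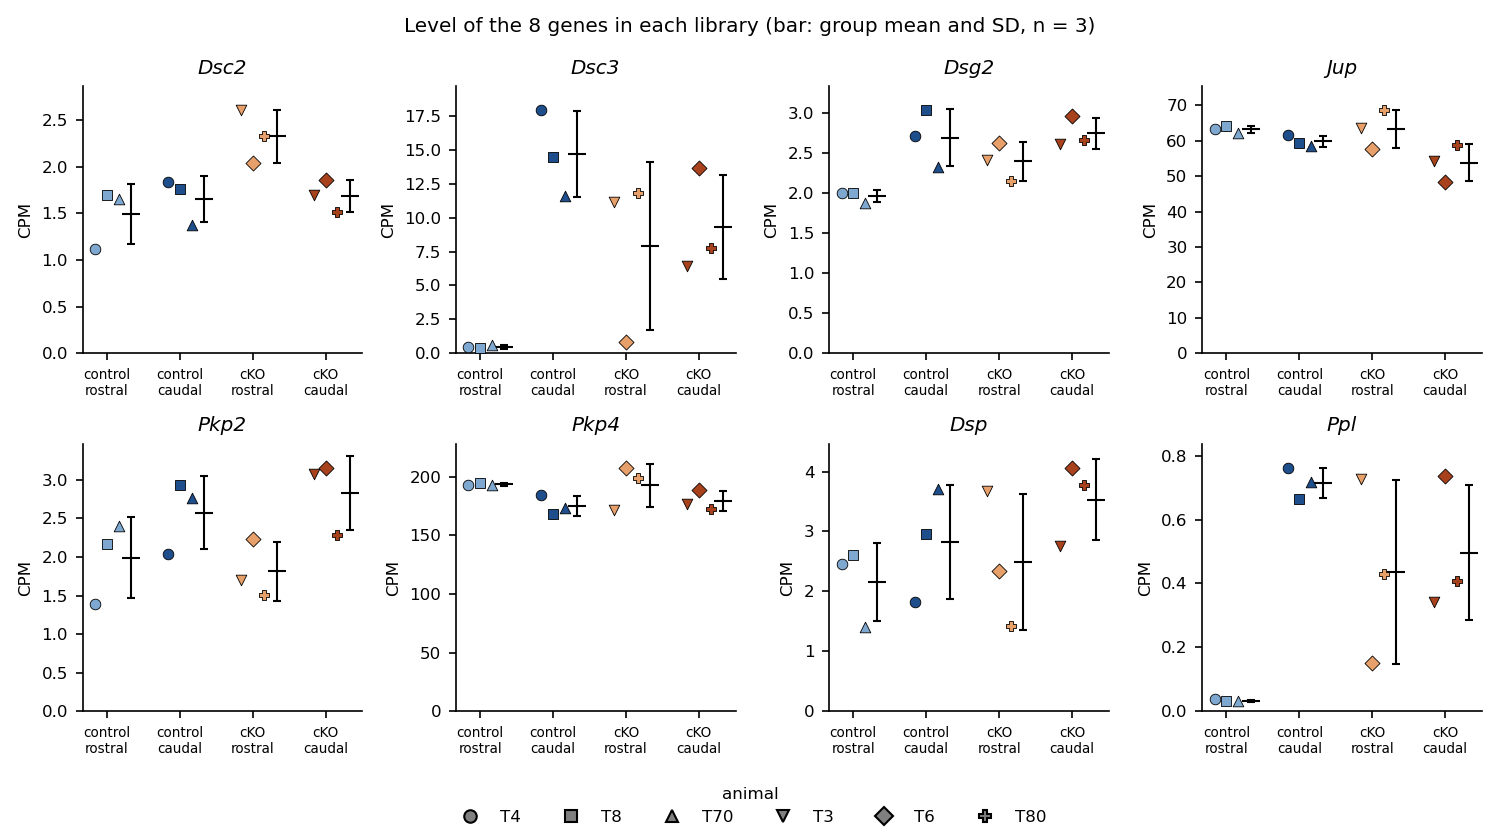
CPM (vertical axes from 0) of each of the 8 genes in the 12 libraries, by group, with a symbol per animal and a bar for the group mean and SD (n = 3). Dsc3 and Ppl sit near 0 in control rostral libraries and high in control caudal ones, while Jup and Pkp4 stay within 48.4 to 68.6 and 168 to 207 CPM in all libraries.

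The comparison of caudal with rostral control cortex asks how the genes are distributed along the forebrain without the deletion. Dsc3 and Ppl were far higher in the caudal than in the rostral tissue, and the other 6 genes differed by less than 0.5 on the log2 scale. Of the 8 genes 2 passed (edgeR quasi-likelihood test, Benjamini-Hochberg adjusted p under 0.05), both higher in caudal cortex, where 12.2% of the 20461 genes tested passed and 6.3% passed on the higher side. DESeq2 called the same 2 genes and 13% of all genes. The regions did not overlap for 5 of the 8 genes (Dsc3, Dsg2, Jup, Pkp4 and Ppl), as for 31.3% of all genes tested. The median log2 fold change of the 8 genes was 0.37, and that of all genes tested 0.00.

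Dsc3, a desmocollin best known from stratified epithelia, was at 0.441 CPM in T4, 0.352 in T8 and 0.592 in T70 in control rostral cortex. In caudal cortex of the same animals it was at 17.9, 14.5 and 11.6 CPM. The regions did not overlap, and the caudal level was 40.7 times the rostral level in T4, 41.2 times in T8 and 19.6 times in T70. The means were 14.7 ± 3.16 CPM and 0.462 ± 0.122 CPM (SD, n = 3), with a log2 fold change of 4.99 (SE 0.22, edgeR adjusted p = 7.67e-06). These values rest on 23 to 37 counts per rostral and 744 to 1506 per caudal library.

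Ppl encodes periplakin, a cytolinker of the cornified envelope and desmosomes. It had 2 counts in each control rostral library (0.0367 CPM in T4, 0.0306 in T8 and 0.0320 in T70). In control caudal cortex it was at 0.761 CPM in T4, 0.666 in T8 and 0.717 in T70, from 45 to 64 counts. The groups did not overlap. Over the summed counts of each group, 155 against 6, the caudal to rostral ratio was 21.8, with an exact binomial interval of 9.80 to 60.4 at 95% that covers counting error only. The edgeR log2 fold change was 4.37 (SE 0.35, adjusted p = 3.73e-05). Ppl met the count filter of this fit through the caudal libraries alone, so this p belongs to a gene admitted by its higher side.

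**Figure D2:**
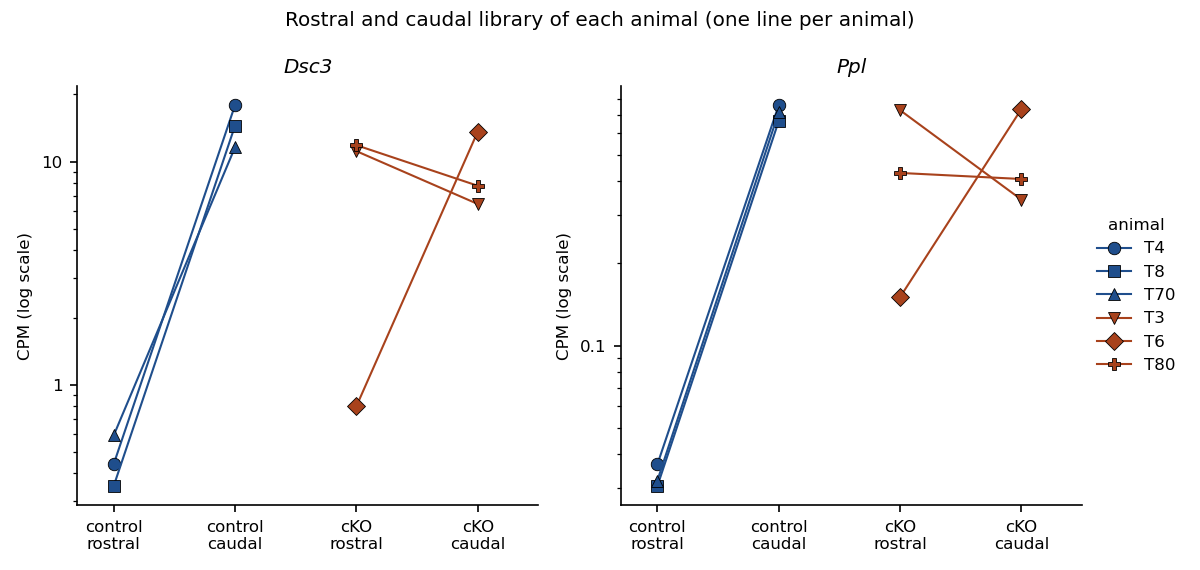
Dsc3 and Ppl in the rostral and caudal library of each animal, in CPM on a log axis, with 1 line per animal and blue for control and brown for cKO. All 3 control lines climb, while among cKO animals the line of T6 climbs and those of T3 and T80 fall. The line of Ppl in T80 is nearly flat, from 0.429 to 0.408 CPM on 28 and 30 counts.

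In rostral cortex, cKO and control libraries were set against each other for the effect of the Egfr deletion there. Dsc3 was at 11.1 CPM in T3, 0.801 in T6 and 11.8 in T80. All 3 cKO values lay above the highest control rostral value (0.592 CPM), but T6 by little. The levels in T3 and T80 were 75.9% and 80.7% of the control caudal mean, and that in T6 was 5.46% of it. The group mean was 7.92 ± 6.18 CPM (SD, n = 3), with a log2 fold change of 4.11 (SE 0.95) and an edgeR adjusted p of 0.339, so the gene did not pass.

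Ppl followed the same libraries, at 0.729 CPM in T3, 0.151 in T6 and 0.429 in T80, from 54, 11 and 28 counts. Each was above the control rostral libraries. Too few libraries reached the count filter for Ppl to be tested in edgeR in rostral cortex. Against the control rostral libraries the ratio of the group sums, 93 against 6 counts, was 13.3 (exact binomial interval 5.89 to 37.2, counting error only).

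Of the 7 genes tested in rostral cortex 0 passed in edgeR, as did 0% of the 20599 genes tested. At an unadjusted p under 0.05 there were 2 of the 7 (Dsc2 and Dsc3), against 9.49% of all genes. The libraries of the 2 genotypes did not overlap for 4 of the 8 genes (Dsc2, Dsc3, Dsg2 and the untested Ppl), each higher in cKO, as for 19.9% of all genes tested and 9.09% with cKO higher. DESeq2 called 2 of the 8 genes, where it called 1.71% of all genes: Dsc3 (log2 fold change 4.09, adjusted p = 0.00566) and Ppl (3.72, adjusted p = 0.00546). In 1 edgeR fit over all 12 libraries Ppl alone of the 8 passed (3.65, SE 0.63, adjusted p = 0.0437), where 0.468% of all genes did (101 of 21599). Without T6 both passed in edgeR, Dsc3 with 4.64 (SE 0.20, adjusted p = 0.000315) and Ppl with 4.08 (SE 0.48, adjusted p = 0.00871), but the cKO group is then T3 and T80, and 5.01% of all genes passed (1058 of 21118). Without any other animal neither passed, and Ppl was not tested without T3 or T80. Ppl met the count filter without T6 through T3 and T80 alone, since each control rostral library had 2 counts. In the fit over all 12 libraries it met the filter through libraries outside control rostral cortex. Its adjusted p in both fits thus follows a filter met only where the gene was higher.

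In caudal cortex the genotypes overlapped for all 8 genes, and failed to overlap for 23% of all genes tested. Dsc3 was at 6.45, 13.6 and 7.79 CPM in the cKO animals T3, T6 and T80. The control caudal libraries ran from 11.6 to 17.9 CPM. T3 and T80, which were high in rostral cortex, were thus below every control in caudal cortex, and T6 lay within the controls. The log2 fold change was -0.65 (SE 0.29, edgeR adjusted p = 0.371), and without T6 it was -1.04 (SE 0.19, adjusted p = 0.0709). Ppl was at 0.343, 0.737 and 0.408 CPM in T3, T6 and T80 (-0.50, SE 0.30, edgeR adjusted p = 0.473), again with T3 and T80 below the controls. Of the 8 genes 0 passed, against 0.0821% of the 20705 genes tested (17 genes). At an unadjusted p under 0.05 there were 0 of the 8, where 14.5% of all genes had one, and DESeq2 called 0 of the 8 and 2.43% of all genes.

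Summed over both regions of an animal, the genotypes did not separate for Dsc3 or Ppl. Dsc3 was at 11, 7.54 and 6.17 CPM in the control animals T4, T8 and T70 and at 9.36, 7.01 and 9.69 CPM in the cKO animals T3, T6 and T80. The ranges overlapped, with a log2 fold change of 0.07 (SE 0.23, edgeR adjusted p = 0.890). Ppl was at 0.476, 0.353 and 0.379 CPM in the controls and 0.582, 0.434 and 0.418 in cKO (0.24, SE 0.23, edgeR adjusted p = 0.611). On the sums 0 of the 8 genes passed in edgeR, against 0.179% of 22924 genes. At an unadjusted p under 0.05 there was 1 of the 8 (Dsc2, the only one of the 8 without overlap, against 26% of all genes), where 15.4% of all genes had such a p, and DESeq2 called 0 of the 8 and 3.26% of all genes.

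The caudal to rostral difference within cKO animals was not of 1 direction. The caudal level of Dsc3 was 0.580 times the rostral level in T3, 17.0 times in T6 and 0.658 times in T80, and that of Ppl 0.470, 4.89 and 0.95 times. The fitted log2 fold changes in cKO were 0.24 (SE 0.81) for Dsc3 and 0.20 (SE 0.58) for Ppl, each with an edgeR adjusted p of 1.0, and without T6 they were -0.68 (SE 0.14, adjusted p = 0.965) and -0.60 (SE 0.40, adjusted p = 0.965). None of the 8 genes passed in this comparison in edgeR, as did 0% of 20944 genes. DESeq2 called 0 of the 8 and 0.0051% of all genes, and 1 of the 8 (Pkp2) had an unadjusted edgeR p under 0.05, against 1.66% of all genes.

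The interaction, which tests whether the regional difference itself differs between the genotypes, gave -4.75 (SE 1.03, adjusted p = 1.0) for Dsc3 and -4.17 (SE 0.78, adjusted p = 0.798) for Ppl in edgeR. Of the 8 genes 0 passed, as did 0% of 21599 genes. At an unadjusted p under 0.05 there were 2 of the 8, Dsc3 and Ppl, against 3.55% of all genes. DESeq2 called both, with adjusted p of 0.0277 for Dsc3 and 0.0135 for Ppl, where it called 0.0596% of all genes. Without the cKO rostral library of T6 both passed in edgeR too, at -5.26 (SE 0.44, adjusted p = 0.0025) and -4.55 (SE 0.57, adjusted p = 0.0125), where 0.159% of all genes did (35 of 22056). That library was chosen after the data were seen, and it is the one whose Dsc3 and Ppl were low.

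**Figure D3:**
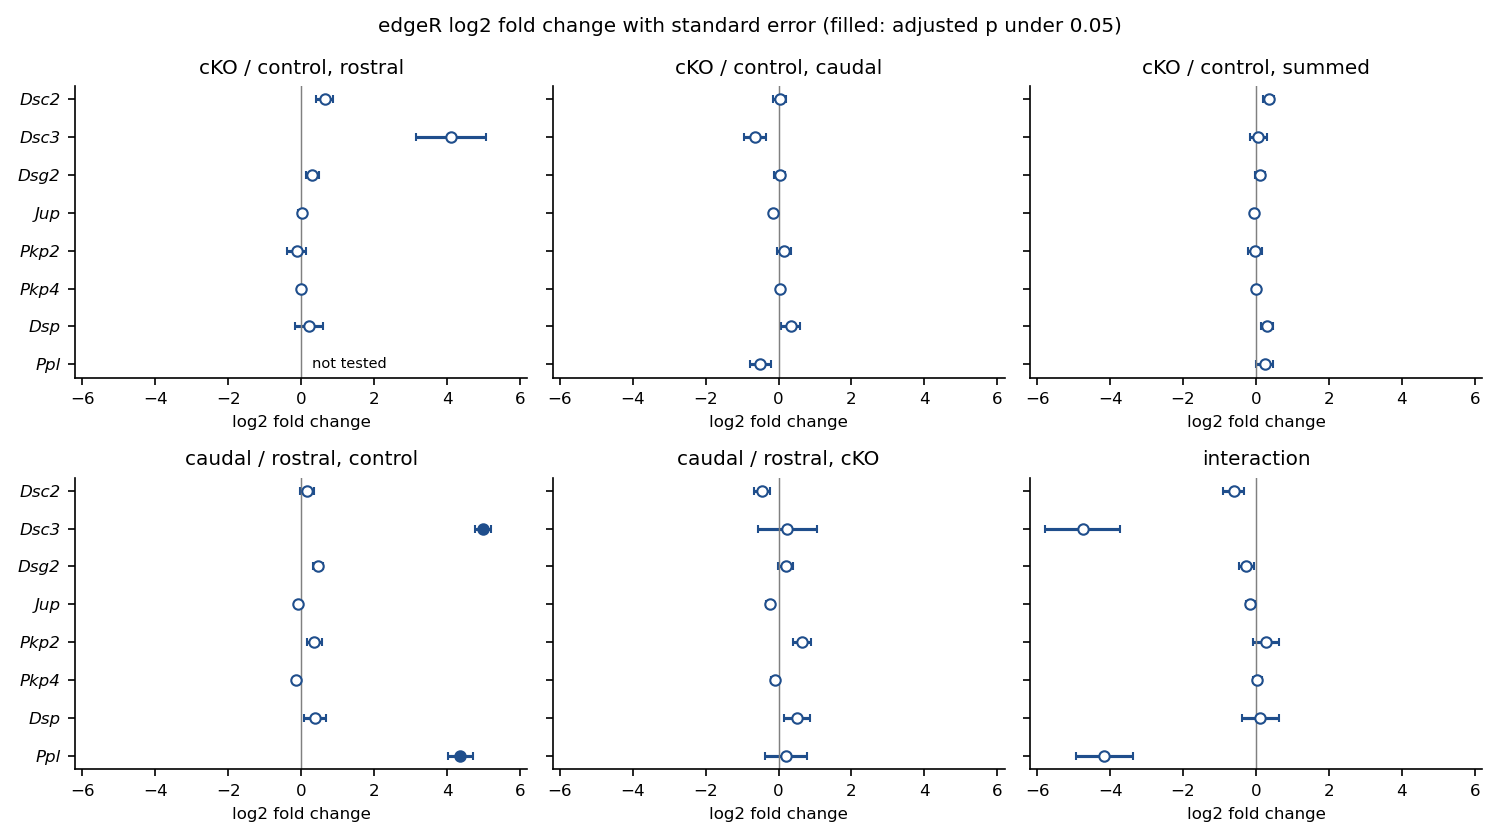
Log2 fold change with standard error (horizontal axes) of each of the 8 genes in the 6 edgeR comparisons, with filled points for an adjusted p under 0.05. Dsc3 and Ppl pass in caudal against rostral control cortex only, and their standard errors there are 0.22 and 0.35, against 0.81 and 0.58 between the cKO regions.

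Markers of other tissues also moved with region, so the levels of their lists stand beside Dsc3 and Ppl. In bulk tissue more cells of a type and more RNA per cell cannot be told apart. Between the control regions 7 of 10 choroid plexus, 2 of 6 ependymal, 2 of 6 arachnoid barrier and 1 of 10 meningeal fibroblast markers were higher in caudal cortex in edgeR. So were 3 of 6 markers of hippocampal pyramidal neurons and 4 of 9 of dentate granule neurons, of which 2 others (Tdo2 and Pdzd2) were lower. Of the astrocyte markers 1 of 6 was higher and 1 lower, 1 of 8 endothelial markers was lower, and 2 of 6 telencephalic neuron markers were lower. Of all genes tested 12.2% passed, and 6.3% on the higher side. In sign, all choroid plexus, ependymal, arachnoid barrier and meningeal fibroblast markers were higher in caudal cortex. Their median log2 fold changes were 1.67, 1.19, 0.90 and 1.03, against 0.00 for all genes. The other marker lists held both signs. No marker was at 0 in all libraries of a group, and the telencephalic neuron list, which checks the tissue, summed to 2650 CPM in rostral cKO cortex of T6 and to 1113 to 1542 CPM in the other 11 libraries.

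The choroid plexus list summed to 6.85 to 8.15 CPM in control rostral, 14.0 to 217 in control caudal, 4.97 to 399 in cKO rostral and 159 to 555 in cKO caudal libraries. Ttr made up most of the mean sum in control caudal cortex, at 120 of 140 CPM. It made up little of it in control rostral cortex, at a mean of 0.195 of 7.30 CPM. In control caudal cortex of T8 it was at 1.64 of 14.0 CPM. With each marker weighted alike, as the mean log2 difference from control rostral cortex, the list was at 1.13 in the control caudal library of T8 (2.7 in T4 and 2.54 in T70). By this measure rostral cKO cortex of T3, T6 and T80 had 3.40, -0.65 and 0.43. The meningeal fibroblast list summed to 147 to 339 CPM in control rostral, 402 to 496 in control caudal, 27.0 to 649 in cKO rostral and 111 to 771 in cKO caudal libraries. In control rostral cortex of T4, T8 and T70 it was at 339, 147 and 291 CPM, with Dsc3 at 0.441, 0.352 and 0.592 CPM. In their caudal cortex the list was at 496, 402 and 490 CPM, with Dsc3 at 17.9, 14.5 and 11.6 CPM. In rostral cKO cortex of T3, T6 and T80 it was at 487, 27.0 and 649 CPM, with Dsc3 at 11.1, 0.801 and 11.8 CPM. In caudal cKO cortex the list was at 111, 597 and 771 CPM, with Dsc3 at 6.45, 13.6 and 7.79 CPM.

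The arachnoid barrier list summed to 31.7 to 44.9 CPM in control rostral, 54.2 to 63.4 in control caudal, 36.4 to 89.5 in cKO rostral and 21.1 to 65.8 in cKO caudal libraries. Klf5 carried much of the sum in rostral cortex, at a mean of 15.6 of 40.3 CPM in control. With each marker weighted alike, the list was at a mean log2 difference from control rostral cortex of 0.54 in T3, -2.31 in T6 and 1.29 in T80 in rostral cKO cortex, against 0.76 to 0.99 in control caudal cortex. In caudal cKO cortex of T3, T6 and T80 it was at -2.21, 0.52 and 0.90, with Dsc3 at 6.45, 13.6 and 7.79 CPM. Among the caudal libraries that of T3 was lowest in the list, in Dsc3 and in Ppl (0.343 CPM). Its Dsc3 level was above that of every control rostral library. The ependymal list summed to 10.4 to 15.4, 15.5 to 24.8, 10.7 to 20.9 and 20.6 to 29.9 CPM, with the groups in the order of the arachnoid sums. The hippocampal pyramidal list was at 251 to 269, 308 to 382, 231 to 483 and 379 to 680 CPM. Zbtb20 made up most of these sums, at a mean of 181 of 262 CPM in control rostral and 426 of 513 CPM in cKO caudal cortex. The mean log2 difference of the list in rostral cKO cortex of T3, T6 and T80 was 0.68, -0.52 and 0.03, against 0.45 to 0.63 in control caudal cortex. The dentate granule list was at 298 to 323, 254 to 267, 272 to 328 and 312 to 342 CPM, sums that were mostly Pdzd2 (a mean of 264 of 311 CPM in control rostral cortex). Its mean log2 difference was 0.53 to 0.62 in control caudal cortex and 0.60 in T3, 0.03 in T6 and 0.35 in T80 in rostral cKO cortex, lowest in T6 as Dsc3 was. Across the same groups the astrocyte list was at 1995 to 2224, 2202 to 2528, 853 to 2210 and 1970 to 2572 CPM and the endothelial list at 277 to 312, 258 to 299, 191 to 332 and 206 to 310 CPM, both lowest in rostral cKO cortex of T6. The part of these cell types in the levels of Dsc3 and Ppl was not tested.

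**Figure D4:**
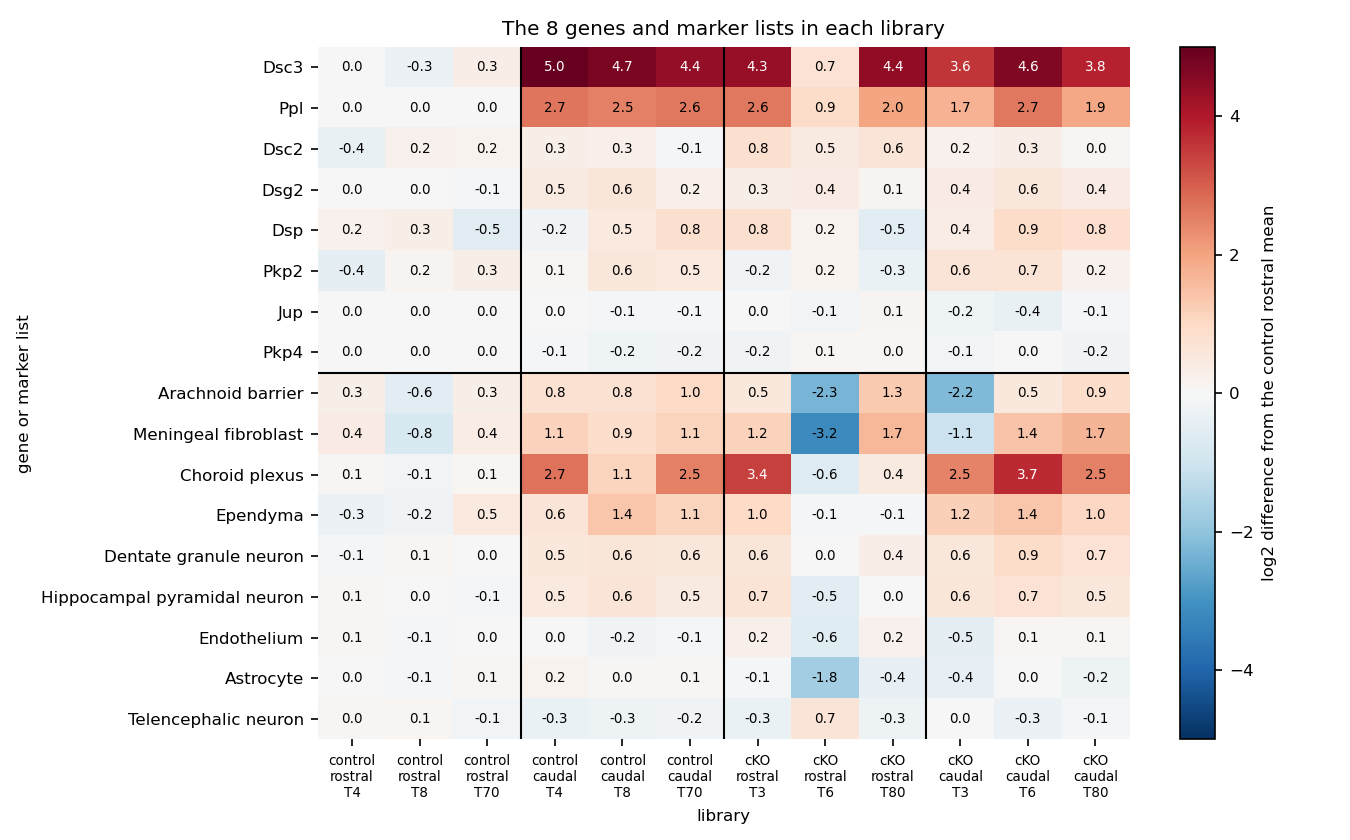
Mean log2 difference (colour and printed value) of the 8 genes and 9 marker lists from the control rostral mean, per library, with 0.1 CPM added before the logarithm. Dsc3 is 3.6 or more above the control rostral mean in all caudal libraries and in rostral cKO cortex of T3 and T80, and 0.7 above it in rostral cKO cortex of T6.

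Among the other cadherins, Dsc2 is the desmocollin of simple epithelia and heart, and Dsg2 is the desmoglein of the same tissues. Dsc2 was at 1.12, 1.70 and 1.65 CPM in control rostral (T4, T8, T70) and at 2.60, 2.04 and 2.33 CPM in cKO rostral libraries (T3, T6, T80). The groups did not overlap, with cKO higher, and the difference did not pass (log2 fold change 0.65, SE 0.24, edgeR adjusted p = 0.479). In caudal cortex Dsc2 was at 1.66 ± 0.248 CPM in control and 1.69 ± 0.173 CPM in cKO (SD, n = 3). In all 3 cKO animals the caudal level was below the rostral one, at 1.70, 1.85 and 1.51 CPM, and among controls this held in T70 alone. The cKO regions did not overlap, as for 5.69% of all genes, and the difference did not pass (-0.46, SE 0.22, edgeR adjusted p = 1.0).

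Dsg2 was at 2.0, 2.0 and 1.87 CPM in control rostral and 2.71, 3.03 and 2.32 CPM in control caudal libraries (T4, T8, T70). The caudal libraries were all higher, as they were for 16.9% of all genes, with a log2 fold change of 0.46 (SE 0.14, edgeR adjusted p = 0.0653). With the animal as a block it passed (0.45, SE 0.13, adjusted p = 0.048), where 15.4% of all genes did. Dsg2 was also higher in caudal cortex of each cKO animal (0.19, SE 0.20, edgeR adjusted p = 1.0 without the block), and the interaction did not pass (-0.26, SE 0.22, edgeR adjusted p = 1.0). In rostral cKO cortex it was at 2.42, 2.63 and 2.15 CPM (T3, T6, T80), all above the control rostral libraries, with a log2 fold change of 0.30 (SE 0.18, edgeR adjusted p = 0.564).

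Jup, which binds cadherin tails in desmosomes and adherens junctions, was lower in caudal than in rostral cortex of all 6 animals. It was at 63.4, 64.2 and 62.1 CPM in control rostral and 61.6, 59.4 and 58.6 CPM in control caudal libraries (T4, T8, T70), a small difference (-0.08, SE 0.05, edgeR adjusted p = 0.354) with groups that did not overlap. In cKO it was at 63.6, 57.8 and 68.6 CPM in rostral and 54.3, 48.4 and 58.8 CPM in caudal libraries (T3, T6, T80; -0.24, SE 0.11, edgeR adjusted p = 1.0), and these groups overlapped. Between genotypes Jup was at 0.01 (SE 0.09) in rostral and -0.15 (SE 0.08) in caudal cortex on the log2 scale, with edgeR adjusted p of 0.965 and 0.429.

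Pkp2, a plakophilin of heart and simple epithelia, was higher in caudal than in rostral cortex of all 6 animals. It was at 1.40, 2.17 and 2.40 CPM in control rostral and 2.03, 2.93 and 2.76 CPM in control caudal libraries (T4, T8, T70), which overlapped (0.36, SE 0.21, edgeR adjusted p = 0.323). In cKO it was at 1.70, 2.23 and 1.5 CPM in rostral and 3.07, 3.15 and 2.28 CPM in caudal libraries (T3, T6, T80). These did not overlap, as for 5.69% of all genes (0.64, SE 0.25, edgeR adjusted p = 1.0). Between genotypes its ranges overlapped in both regions.

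Pkp4, the relative of p120 catenin also known as p0071, was the steadiest of the 8 genes, with a coefficient of variation of 6.8% over the 12 libraries. It was at 193, 195 and 193 CPM in control rostral and 185, 168 and 174 CPM in control caudal libraries (T4, T8, T70), which did not overlap (-0.14, SE 0.05, edgeR adjusted p = 0.0931). The cKO rostral libraries T3, T6 and T80 were at 172, 207 and 199 CPM, on both sides of the controls. The log2 fold change between genotypes was 0.00 (SE 0.09) in rostral and 0.04 (SE 0.07) in caudal cortex, with edgeR adjusted p of 0.994 and 0.842.

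Dsp, the plakin that links the plaque to filaments, varied within its groups. The group SDs were 0.651 to 1.14 CPM (n = 3), around group means of 2.16 to 3.53 CPM. It was at 2.46, 2.60 and 1.41 CPM in control rostral and 1.82, 2.96 and 3.71 CPM in control caudal libraries (T4, T8, T70), and the caudal level was below the rostral one in T4. In cKO it was at 3.68, 2.34 and 1.43 CPM in rostral and 2.76, 4.06 and 3.78 CPM in caudal libraries (T3, T6, T80), and below it in T3. Every group overlapped its neighbours, and its log2 fold changes ran from 0.12 in the interaction (SE 0.51) to 0.51 in caudal against rostral cKO cortex (SE 0.36), none of which passed in edgeR.

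The 4 related lists show the rest of the junction. Among the 9 other desmosomal genes 4 were tested between the control regions, and Perp, a tetraspan protein of desmosomes, rose in caudal cortex (0.76, SE 0.09, edgeR adjusted p = 0.000491) from 5.08 to 8.62 CPM. Dsc1, the neighbouring desmocollin gene, was at 0.742 CPM in control rostral and 0.901 in control caudal cortex, far from the contrast of Dsc3, and did not pass. Dsg1a, Dsg3, Dsg4, Pkp1 and Pkp3 stayed under the count filter in that comparison. Of the 5 other plakins 2 fell in caudal control cortex, the giant cytolinkers Dst (-0.45, SE 0.06, edgeR adjusted p = 0.000675) and Plec (-0.43, SE 0.08, adjusted p = 0.00905). Evpl, the partner of Ppl in the cornified envelope, was at 1.67 and 1.98 CPM in the control regions and did not pass. Dsc1 and Evpl were likewise picked after their values were seen.

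None of the 10 adherens junction genes passed between the control regions in edgeR, and their median log2 fold change was 0.02. Of the 15 intermediate filament genes 13 were tested, of which 6 rose and 1 fell in caudal cortex. The glial filament gene Gfap rose by 0.94 (SE 0.11, edgeR adjusted p = 0.00156), Vim by 0.52 (SE 0.06, adjusted p = 0.000506) and the neurofilament gene Nefm by 0.50 (SE 0.07, adjusted p = 0.00119), and Synm fell by 0.43 (SE 0.07, adjusted p = 0.00246). The simple epithelial keratins Krt18 (2.22, SE 0.36, edgeR adjusted p = 0.003) and Krt8 (1.82, SE 0.41, adjusted p = 0.0167), singled out after their values were seen, had the steepest rises, from 0.154 and 0.0802 CPM in control rostral cortex. In the comparisons of genotype, in cKO regions and in the interaction 0 genes of the 4 lists passed in edgeR.

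**Figure D5:**
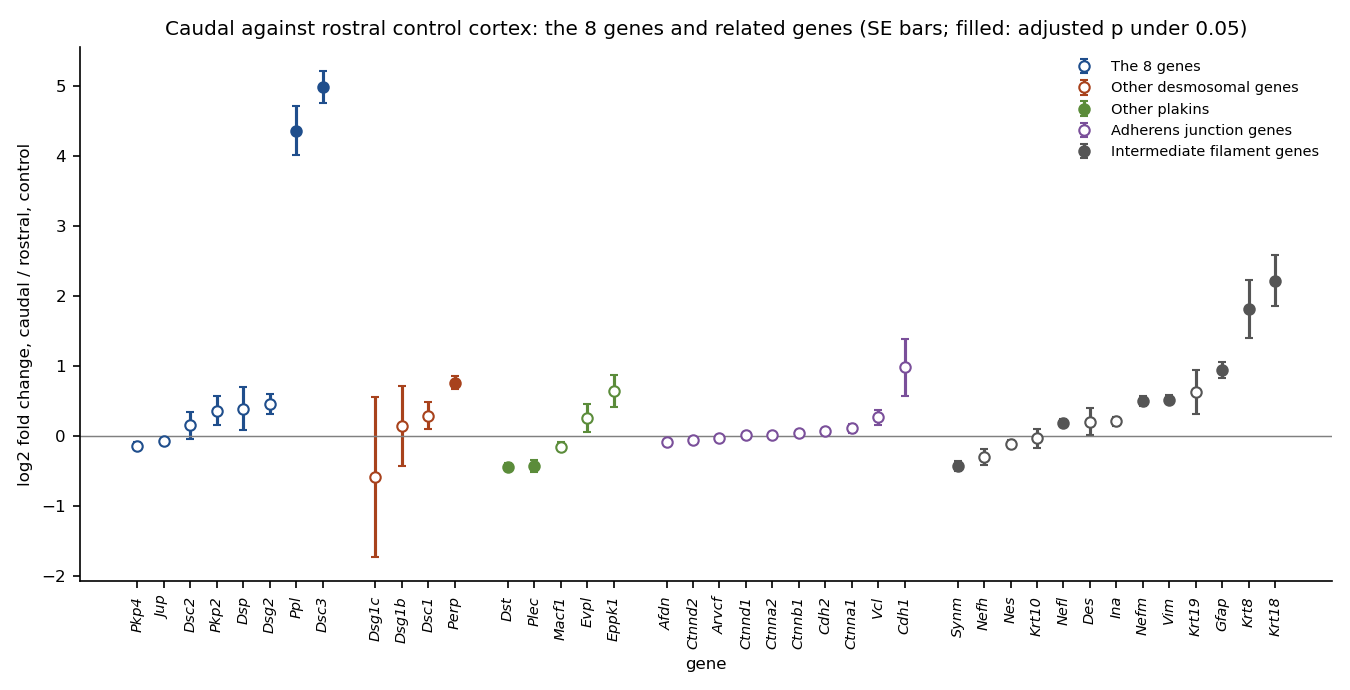
Log2 fold change of caudal against rostral control cortex, with standard errors, for the 8 genes and the tested members of 4 related lists, sorted within each list, with filled points for an adjusted p under 0.05. Dsc3 (4.99) and Ppl (4.37) lie above every related gene, of which Krt18 (2.22) is the highest.

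Over the 12 libraries Dsc3 and Ppl had a Pearson correlation of 0.97 on the log2 CPM scale, the highest among the 28 pairs of the 8 genes. The next were Dsg2 with Ppl (0.76) and Dsg2 with Dsc3 (0.685), and the lowest was Jup with Pkp2 (-0.79). Among genes with a mean of 1 CPM or more, those most like Dsc3 were Clrn1 (0.97), the transporter gene Abca8a (0.97) and the protease inhibitor gene Spint2 (0.97). Spint2 was at 4.77 ± 0.201 CPM in control rostral, 15.8 ± 2.09 in control caudal, 9.14 ± 4.58 in cKO rostral and 12.4 ± 3.01 in cKO caudal libraries (SD, n = 3). These libraries share animals and the contrast of the regions, so the coefficients are descriptions.

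The other genes had looser or flatter matches. Those nearest to Pkp4 were Grik3 (0.95), a kainate receptor gene, Ntrk2 (0.91), the receptor gene for BDNF, and Srgap1 (0.91). Those nearest to Jup were Gprin2 (0.96), Farp1 (0.90) and Ppfia4 (0.90). For Dsg2 they were Fsip1 (0.91), Dgkg (0.90) and Kcnab2 (0.90), and for Dsc2 Dusp18 (0.89), Greb1l (0.81) and the prolactin receptor gene Prlr (0.80), a member of the choroid plexus list. For Pkp2 they were Dtwd1 (0.86), Tcea1 (0.85) and Steep1 (0.83), and for Dsp the cortical transcription factor gene Emx2 (0.84) and Shisa6 (0.83).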

How the data were processed

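STAR 2.7.8a, featureCounts 2.0.3 and the build GRCm39 are named in the submitters' processing notes. The deposited values are estimated counts per gene, of which 9.69% to 14.3% per library were fractional, so reads may have been divided between genes. Not given in the sources used here: annotation release, strand setting and handling of multi-mapping reads. Counts were rounded for the tests, although whole counts had been planned for.

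Each comparison was fitted over all genes with edgeR 4.0.16 in R 4.3.3 (filterByExpr, TMM scaling, robust quasi-likelihood F test, Benjamini-Hochberg adjustment, threshold 0.05) on the libraries of its own groups, and with DESeq2 1.42.0 as an alternative. The SE is the size of the log2 fold change divided by the square root of F. On simulated counts with 4-fold changes, the edgeR fit of each comparison recovered 100% of the changed genes. With 2-fold changes the fit of the interaction recovered 91%. The simulation gave every gene the same small spread and changed only genes above a minimum mean count. It therefore does not show how often a change as uneven as that of Dsc3 in rostral cKO cortex would pass. Nor does it show this for a gene with as few counts as Ppl had in rostral cortex. Levels are deposited counts in CPM, scaled by TMM over all 12 libraries, and totals and the CPM of Egfr and Ttr are unscaled.

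Libraries that share a T number were treated as 1 animal. Deviations of an animal's libraries from their group means correlated with r = 0.262 (T4), 0.238 (T8), 0.328 (T70), 0.0362 (T3), -0.00379 (T6) and 0.454 (T80) across genes. The fits of region, of the interaction and over all 12 libraries leave the pairing out. The block of animals is an alternative for region and for the interaction.

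The 8 genes and the 13 gene lists were chosen with earlier results of these data known. Named genes are the 8 genes, Egfr, the 3 genes with the highest correlation with each member above 0.5 CPM, and up to 4 genes per related list that passed. Krt8, Krt18, Dsc1, Evpl and the single markers given were named outside this rule after their values were seen. A gene that the rule names is not reported here. Intervals cover counting error only, and p-values measure the spread between libraries, with 3 animals per genotype. The interaction and the fit over all libraries pool this spread over the 4 groups and treat libraries of the same animal as independent. Other alternatives were RLE scaling, no low-count filter, 1 CPM in 3 libraries, each animal left out, sex as a covariate, and 1 fit over all libraries. The removal of single cKO rostral libraries was added after the data were seen.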

Additional observations from a re-analysis of the deposited data

How the results depend on the processing

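The number of the 8 genes past the threshold in caudal cortex, on the summed counts and between the cKO regions was 0 under each alternative run. In rostral cortex it was 0 and became 2 with DESeq2 and 1 in the fit over all 12 libraries, and 0 to 2 with an animal left out. In the interaction it was 0 and became 2 with DESeq2 and 2 without the cKO rostral library of T6, and 0 to 2 with an animal left out. Between the control regions it was 2, and 1 with the filter of 1 CPM in 3 libraries, which removed Ppl. With the replicate block it was 3 there, with Dsg2 added (0.45), and the block changed no other call.

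Signs turned only where log2 fold changes did not pass. In rostral cortex Jup (0.01) was at -0.00011 with DESeq2, and Pkp4 (0.002) at -0.0073 with DESeq2, -0.0077 without a filter, -0.0054 in the fit over all libraries and -0.037 with sex. On the sums Pkp4 (0.007) was at -0.0014 without a filter and -0.014 with sex. Without the cKO rostral library of T6, Dsc3 was at -0.29 and Ppl at -0.20 between the cKO regions. In the interaction Pkp4 was at -0.039 without that of T3 and Dsp at -0.16 without that of T80. With an animal left out, ranges crossed 0 in rostral cortex for Dsp (-0.19 to 0.49), Jup (-0.055 to 0.074), Pkp2 (-0.33 to 0.021) and Pkp4 (-0.052 to 0.073). They did so in caudal cortex for Dsc2 (-0.092 to 0.11), Dsg2 (-0.065 to 0.12), Pkp2 (-0.0092 to 0.28) and Pkp4 (-0.012 to 0.069), and on the sums for Dsc3 (-0.10 to 0.34), Jup (-0.13 to 0.0085), Pkp2 (-0.19 to 0.077) and Pkp4 (-0.036 to 0.049). Between regions they did so for Dsc2 (-0.098 to 0.34) and Dsp (-0.090 to 0.73) in control and for Dsc3 (-0.68 to 0.78) and Ppl (-0.60 to 0.99) in cKO, and in the interaction for Dsp (-0.23 to 0.67) and Pkp4 (-0.022 to 0.088). The cause was not tested. The 2 counts of Ppl per control rostral library limit its fold change. In each filtered edgeR fit of single libraries that includes these, Ppl met the filter through other libraries, where it was higher. Over all genes, counts of calls moved by over 1.5 times as follows. In rostral cortex 0 became 371 with DESeq2, 45 without a filter, 101 in the fit over all libraries, 7 without T3 and 1058 without T6. In caudal cortex 17 became 468 with DESeq2, 326 without a filter, 1 in the fit over all libraries, 2 with sex and 0 to 162 with an animal left out. On the sums 41 became 740 with DESeq2, 320 without a filter, 1 with sex and 1 to 685 with an animal left out. Between the control regions 2492 became 1079 without T8 and 1487 without T70. Between the cKO regions 0 became 2 with DESeq2, and in the interaction 0 became 14 with DESeq2, 2 without a filter, 1 without T3, 1 without its rostral library alone, 475 without T6 and 35 without its rostral library alone.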
